A study of Mus musculus with 9 samples.

Results

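The subunits of the mitochondrial respiratory chain and ATP synthase were examined in 9 RNA-seq libraries of mouse embryonic stem (ES) cells. The members were set by a rule on gene symbols. They were the 13 protein genes of mitochondrial DNA and the nuclear symbols of complex I to V subunits in the Nduf series (a letter a, b, c, s or v and then digits alone), the Uqcr series, Sdha to Sdhd, the Cox series and the Atp5 series, without pseudogenes, which gave 97 of the 40213 gene symbols in the files. Of these, 13 were mitochondrial (7 of complex I, 1 of complex III, 3 of complex IV and 2 of complex V) and 84 were nuclear (36 of complex I, 4 of complex II, 8 of complex III, 19 of complex IV and 17 of complex V). Ndufa4 was counted with complex IV, where its protein resides. The libraries came from an EWS-OCT4 line (3 libraries), an OCT4 line (3 libraries) and the control ES cell line J1 (3 libraries). The stable lines are named Niwa lines and carry either OCT4 itself or EWS-OCT4, in which OCT4 is joined to EWS, a protein that binds RNA. OCT4 is the transcription factor, encoded by Pou5f1, that keeps ES cells pluripotent. Both were given 1 µg/ml doxycycline to lower their endogenous OCT4, and all 3 lines grew in ES cell medium with LIF, a cytokine that sustains self-renewal. The question of the series is whether EWS-OCT4 maintains self-renewal in place of OCT4. The labels name neither the promoter that drives either construct nor a clone number, and they do not say whether J1 received doxycycline. Host line, construct and possibly doxycycline therefore change together in each comparison with J1, and cannot be told apart there. In EWS-OCT4 versus OCT4, the construct and other differences between the lines or clones cannot be told apart either.

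The respiratory chain passes electrons from NADH (complex I) and succinate (complex II) through ubiquinone to complex III, cytochrome c and complex IV, which reduces oxygen, and ATP synthase (complex V) uses the proton gradient that the chain builds. Complexes I, III, IV and V combine subunits made inside mitochondria with subunits imported from the cytosol, whereas complex II is wholly nuclear-encoded. Mitochondrial DNA is read as long transcripts from each strand that are cut into individual RNAs, so the relative levels of messages from the same strand are set largely after transcription. Pluripotent stem cells are known for relying on glycolysis beside a functional chain, and naive mouse ES cells for respiring more than primed cells.

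Mitochondrial genes lie so close together that some overlap, which limits how their counts can be read. ATP8 and ATP6, which encode ATP synthase subunits on a shared message, overlap by 43 bases, printed here from the GENCODE M21 transcripts (build GRCm38) with the start codon of ATP6 in capitals, because a read in this stretch fits both genes.
ATP8/ATP6 overlap: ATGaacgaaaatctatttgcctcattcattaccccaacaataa
ND4L and ND4 overlap by 7 bases in the same way. Among nuclear genes, the clearest case of several genes for the same protein is the c subunit of ATP synthase, whose ring turns as protons pass. Atp5g1, Atp5g2 and Atp5g3 encode the same mature c subunit behind different import sequences, and their counts moved differently between the lines (see the values of complex V). Their promoters, from 250 bases before to 50 bases after the start site, are printed from RefSeq (build GRCm38.p6), all on the minus strand. They lie at chr11:96075582-96075881 (Atp5g1), chr15:102670998-102671297 (Atp5g2) and chr2:73911277-73911576 (Atp5g3), and the capitals mark a match to the NRF1 motif (10 letters).
Atp5g1: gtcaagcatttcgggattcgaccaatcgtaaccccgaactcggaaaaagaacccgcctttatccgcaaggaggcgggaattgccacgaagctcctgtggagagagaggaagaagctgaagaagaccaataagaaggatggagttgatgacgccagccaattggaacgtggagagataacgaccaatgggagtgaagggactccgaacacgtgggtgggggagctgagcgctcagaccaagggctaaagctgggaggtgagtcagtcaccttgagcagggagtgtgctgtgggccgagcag
Atp5g2: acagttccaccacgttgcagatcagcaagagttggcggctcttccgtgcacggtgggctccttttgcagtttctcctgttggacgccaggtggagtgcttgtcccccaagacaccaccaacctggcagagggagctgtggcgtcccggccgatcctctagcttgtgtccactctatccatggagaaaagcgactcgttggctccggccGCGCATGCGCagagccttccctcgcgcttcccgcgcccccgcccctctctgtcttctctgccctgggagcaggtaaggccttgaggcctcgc
Atp5g3: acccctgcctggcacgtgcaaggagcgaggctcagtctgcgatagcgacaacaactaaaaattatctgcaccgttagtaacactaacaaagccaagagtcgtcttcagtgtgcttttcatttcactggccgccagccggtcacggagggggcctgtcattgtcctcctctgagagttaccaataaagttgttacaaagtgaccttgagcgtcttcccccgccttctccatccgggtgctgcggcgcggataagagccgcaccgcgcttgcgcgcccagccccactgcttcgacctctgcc
Only the Atp5g2 window holds the NRF1 letters among these 3 genes, 42 bases before the start site. NRF1 (nuclear respiratory factor 1), the ETS factor GABPA and YY1 are regulators known from other cells to bind promoters of respiratory chain genes. In the 69 nuclear members with a promoter entry, searched on both strands, the NRF1 letters stood in 5 (7.25%), namely Atp5g2, Atp5k, Cox6a1, Ndufa11 and Uqcrc1. The share was 1.07% of all 27025 genes with windows of the same length, where a gene with several windows counts once. The ETS motif CCGGAAGT stood in 5 (7.25%; Atp5h, Cox8a, Ndufs3, Uqcr11 and Uqcrh), against 4.31% of all, and the YY1 core motif (11 letters) in 4 (5.8%; Ndufa9, Ndufs4, Ndufs6 and Ndufs7), against 0.755% of all. These matches describe letters in a window and no more.

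Library totals ran from 21149358 to 24786305 counts, and 16562 genes had enough counts to be tested, 93 members among them. Whether replicates came from separate cultures is not stated, and the p-values therefore reflect only the spread among these libraries, which may be technical. Pou5f1 averaged 26.8 ± 2.12 normalised counts (CPM, counts scaled to a common library size) in EWS-OCT4 cells, 165 ± 2.61 CPM in OCT4 cells and 569 ± 61.8 CPM in J1 (SD, n = 3 each). Reads of a transgene and of the native gene may fall on the same symbol. All 10 ES cell markers reached a mean of 1 CPM in each group, with summed levels of 3562 to 3685, 3326 to 3411 and 4863 to 5274 CPM in the EWS-OCT4, OCT4 and J1 libraries. Markers of other lineages differed between the lines. The 8 trophoblast markers summed to 132 to 138, 410.4 to 445 and 106 to 129.5 CPM, and the 8 primitive endoderm markers to 35.6 to 38.8, 317 to 353 and 98.4 to 104 CPM, in the EWS-OCT4, OCT4 and J1 libraries. The 8 fibroblast markers summed to 28.6 to 32, 57.7 to 64 and 80.9 to 100.3 CPM in that order, with Dcn at 0 in EWS-OCT4 cells, Lum at 0 in OCT4 cells and both at 0 in J1. The 8 cardiac and skeletal muscle markers summed to 29.2 to 33.2, 37.6 to 43.2 and 36.8 to 68.9 CPM. Within a list, single markers went both ways (edgeR adjusted p under 0.05). In EWS-OCT4 versus OCT4, 1 of 7 tested primitive endoderm markers was higher and 4 lower (71.4% called, log2 fold changes -4.63 to 3.77). Of 5 tested muscle markers, 2 were higher and 1 lower there (60%, -5.47 to 1.88), where 66.5% of all genes were called. In EWS-OCT4 versus J1, 2 muscle markers were higher and 2 lower (80%, -0.99 to 3.04), against 61.9% of all genes called. In such bulk samples, fewer cells of a type and less RNA per cell cannot be told apart, and the part these cells had in the results was not tested.

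Mitochondrial messages took a larger share of the RNA in EWS-OCT4 cells than in either other line, while nuclear subunit messages took a slightly smaller share. The 13 mitochondrial genes held 16.7, 16.3 and 17.1 percent of all counts in the EWS-OCT4 libraries, 12.5, 10.1 and 12 percent in the OCT4 libraries, and 15.7, 12.5 and 14.7 percent in the J1 libraries. Every EWS-OCT4 library lay above every other library, and the highest OCT4 library lay only just below the lowest J1 library. The 84 nuclear members together held 0.818 ± 0.00585 percent of counts in EWS-OCT4 cells, 0.932 ± 0.00867 percent in OCT4 cells and 0.92 ± 0.0535 percent in J1 (SD, n = 3 each). There were thus 20.4 ± 0.51 mitochondrial counts for each nuclear member count in EWS-OCT4 cells, 12.4 ± 1.39 in OCT4 cells and 15.6 ± 2.43 in J1. These sums carry no test, being scores over chosen members. A single abundant symbol, Gm26917, a predicted gene, moved in the opposite direction to the mitochondrial share between the stable lines, at 1.64 to 1.84 percent of counts in EWS-OCT4 cells, 3.71 to 5.81 percent in OCT4 cells and 0.841 to 1.12 percent in J1. OCT4 replicate 2, which held the most Gm26917, also held the least mitochondrial message. Its part in the result was not tested.

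**Figure D1:**
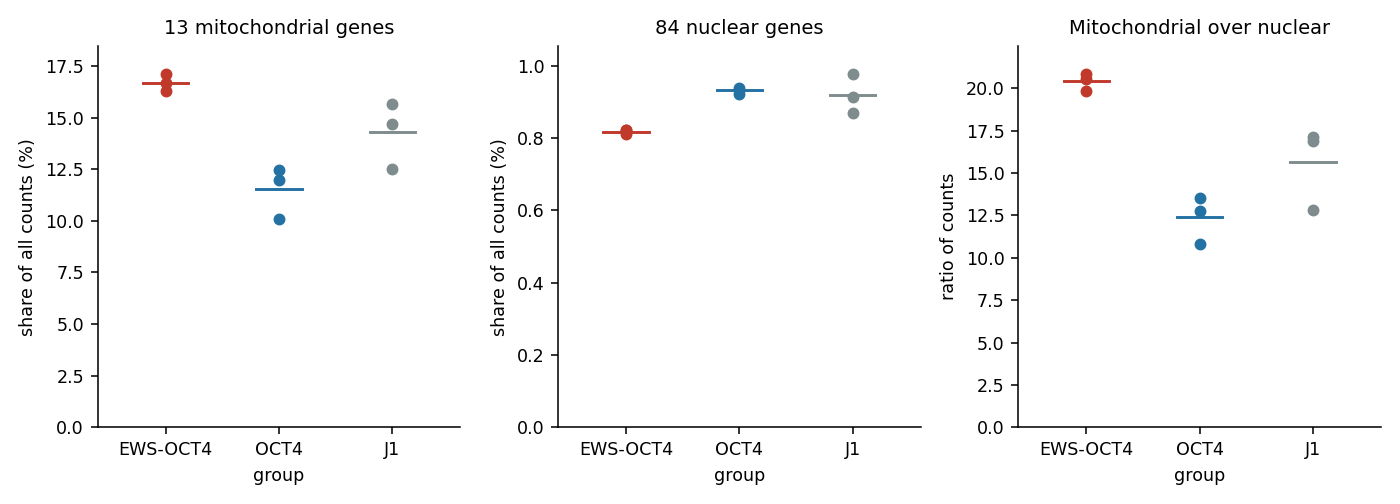
Share of all counts in the 13 mitochondrial genes (left, percent), share in the 84 nuclear members (middle, percent) and ratio of mitochondrial to nuclear member counts (right), by group. Points are libraries and bars are means of 3; the EWS-OCT4 libraries are highest in the left and right panels and lowest in the middle panel.

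The rise of mitochondrial messages was uneven across the 13 genes. Between the EWS-OCT4 and OCT4 lines, 8 of 13 rose, 0 fell and 5 did not pass, in edgeR (quasi-likelihood test, Benjamini-Hochberg adjusted p under 0.05 over all 16562 genes), where 66.5% of all genes were called, 31.9% as higher and 34.6% as lower. The median log2 fold change was 0.68 for the 13 genes, against -0.035 for all genes. COX3, at -0.24, missed the threshold (edgeR adjusted p = 0.0668) but passed as lower without OCT4 replicate 2 (edgeR adjusted p = 0.0398), J1 replicate 1 (0.00943) or J1 replicate 2 (0.0399). Against J1, 7 of 13 rose in EWS-OCT4 cells and 2 fell, with a median of 0.41, where 61.9% of all genes were called, 30.3% higher and 31.6% lower, and the median over all genes was 0.0026. The comparisons share libraries, so their values are given side by side and are not independent.

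CYTB, the cytochrome b core of complex III and its only mitochondrial subunit, had 27085, 27102 and 28772 CPM in the EWS-OCT4 libraries, 12907, 9780.2 and 12510.0 CPM in the OCT4 libraries and 12379, 10781 and 12938 CPM in the J1 libraries. The lowest EWS-OCT4 library lay above the highest of all others, and the OCT4 and J1 libraries overlapped. CYTB rose 2.36-fold against OCT4 (log2 fold change 1.24 ± 0.10, here and below with its standard error; edgeR adjusted p = 1.29e-08) and 2.3-fold against J1 (1.20 ± 0.10; edgeR adjusted p = 2.76e-08). ND2 and ND3, subunits of the membrane arm of complex I, rose in the same comparisons: ND2 rose by 1.16 ± 0.10 against OCT4 and 1.03 ± 0.10 against J1 on the log2 scale, and ND3 by 0.94 ± 0.10 and 0.999 ± 0.10. For ND2, ND3 and CYTB the OCT4 line did not differ detectably from J1, at -0.13 ± 0.10, 0.054 ± 0.10 and -0.036 ± 0.10. Without J1 replicate 2, however, ND2 passed as lower in OCT4 cells (edgeR adjusted p = 0.0429), and without J1 replicate 1, ND3 passed as higher there (0.0206).

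ND1, the complex I subunit next to the ubiquinone site, followed another order. Its levels were 17769, 18749 and 20389 CPM in the EWS-OCT4 libraries, 7359, 5694 and 6962 CPM in the OCT4 libraries and 15785, 12155 and 15074 CPM in the J1 libraries. No groups overlapped, and the OCT4 line was lowest. ND1 rose 2.84-fold in EWS-OCT4 cells against OCT4 (log2 fold change 1.51 ± 0.11; edgeR adjusted p = 2.69e-09), the largest change among the 13 genes, and 1.32-fold against J1 (0.40 ± 0.11; edgeR adjusted p = 0.00404). In the OCT4 line it fell to 46.5% of J1 (-1.10 ± 0.11; edgeR adjusted p = 1.05e-07). ND4, a further pumping subunit, rose in EWS-OCT4 cells by 0.68 ± 0.10 against OCT4 and 0.41 ± 0.10 against J1. ND4L, which shares its message with ND4, rose by 0.99 ± 0.21 against OCT4 (edgeR adjusted p = 0.0034), and its difference from J1, 0.28 ± 0.21, did not pass, except without OCT4 replicate 1 (edgeR adjusted p = 0.0438).

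COX1, which holds the heme and copper centre of complex IV where oxygen is reduced, went the other way. It had 22512, 22190.0 and 24252 CPM in the EWS-OCT4 libraries, 24283, 21111 and 25000.0 CPM in the OCT4 libraries and 41973, 32957 and 38381 CPM in the J1 libraries. Both stable lines lay below all J1 libraries and overlapped with each other. COX1 fell to 60.9% of J1 in EWS-OCT4 cells (log2 fold change -0.72 ± 0.10; edgeR adjusted p = 7.52e-06) and to 62.1% in OCT4 cells (-0.69 ± 0.10; edgeR adjusted p = 8.7e-06), and the stable lines differed at -0.030 ± 0.10, which did not pass. COX3 also fell against J1 in EWS-OCT4 cells, at -0.48 ± 0.11 (edgeR adjusted p = 0.00146). COX2, which takes electrons from cytochrome c, instead rose in EWS-OCT4 cells, by 0.38 ± 0.10 against OCT4 and 0.39 ± 0.10 against J1. The 3 mitochondrial messages of complex IV thus did not move together.

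**Figure D2:**
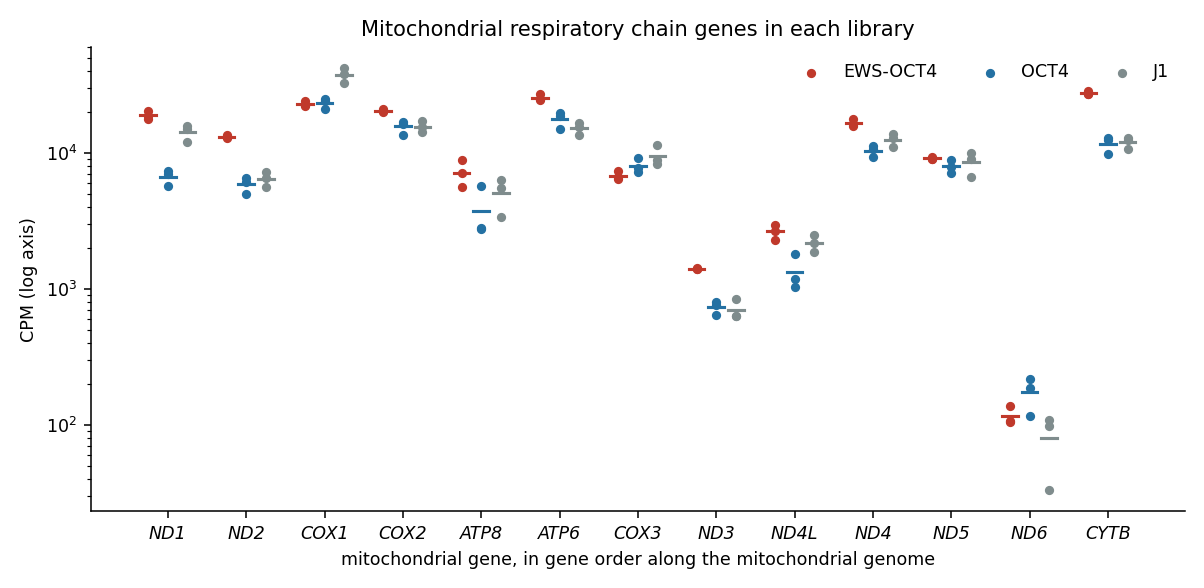
Levels of the 13 mitochondrial genes in each library, in CPM on a log axis, in gene order along the mitochondrial genome. Points are libraries and bars are means of 3. EWS-OCT4 libraries stand apart upward for ND1, ND2, ND3, ND4, CYTB, COX2 and ATP6, J1 libraries stand apart upward for COX1, and ND6 is lowest in every group.

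ATP6, the ATP synthase subunit that forms the proton path beside the c ring, had 25148, 24472 and 27110.0 CPM in the EWS-OCT4 libraries, 18766, 14967 and 19595 CPM in the OCT4 libraries and 16624, 13501 and 15561 CPM in the J1 libraries. It rose in EWS-OCT4 cells by 0.52 ± 0.11 against OCT4 (edgeR adjusted p = 0.000282) and 0.75 ± 0.11 against J1 (edgeR adjusted p = 8.94e-06), with no overlap in either case. ATP8 had 8835, 7089 and 5659.7 CPM in EWS-OCT4 cells, 5677, 2795 and 2742 CPM in OCT4 cells and 6317, 3402 and 5568 CPM in J1. Its replicates spread so widely that differences of 0.94 ± 0.39, 0.50 ± 0.38 and -0.45 ± 0.38 for EWS-OCT4 against OCT4, EWS-OCT4 against J1, and OCT4 against J1 did not pass by edgeR. By DESeq2 the difference between the stable lines passed (DESeq2 adjusted p = 0.026). Without OCT4 replicate 1, the highest OCT4 library for ATP8, it passed by edgeR too (adjusted p = 0.00751), as did the lower level in OCT4 cells against J1 (0.0406). ND5 did not pass in any of the 3 comparisons, at 0.20 ± 0.12, 0.10 ± 0.12 and -0.10 ± 0.12, although it passed in EWS-OCT4 versus OCT4 without J1 replicate 2 (edgeR adjusted p = 0.0326) and as lower in OCT4 versus J1 without that library (0.0193). ND6, the only protein gene read from the light strand, had 106, 138 and 105 CPM in EWS-OCT4 cells, 117, 217 and 187 CPM in OCT4 cells and 33, 109 and 97.5 CPM in J1, and did not pass in any comparison by edgeR. By DESeq2 its higher level in OCT4 versus J1 passed (1.12 ± 0.47 by edgeR, adjusted p = 0.0737; DESeq2 adjusted p = 0.0282). Whether counting used strand is not given in the sources used here, so counts of ND6 cannot be told from heavy-strand RNA over the same bases.

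Between the OCT4 line and J1, 4 of 13 mitochondrial genes fell and 0 rose, with a median of -0.13, where 67.0% of all genes were called, 34.3% higher and 32.7% lower, and the median over all genes was 0.0062. ND1 and COX1 fell most firmly. ND4 fell, at -0.27 ± 0.10 (edgeR adjusted p = 0.0187), but not without OCT4 replicate 2 (0.104) or J1 replicate 3 (0.0699). ND4L fell, at -0.71 ± 0.21 (edgeR adjusted p = 0.0169), but not without OCT4 replicate 2 (0.0526) or J1 replicate 1 (0.0749). This count was sensitive to single libraries, with 2 genes lower without OCT4 replicate 2 and 7 without J1 replicate 2. Genes higher numbered 1 without OCT4 replicate 2 (ATP6) and 2 without J1 replicate 1 (ATP6 and ND3).

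Ratios between mitochondrial messages do not depend on how much mitochondrial RNA a library holds. Counts of CYTB per count of COX1 were 1.2, 1.22 and 1.19 in the EWS-OCT4 libraries, 0.532, 0.463 and 0.5 in the OCT4 libraries, and 0.295, 0.327 and 0.337 in the J1 libraries. The 3 groups were fully apart, with the EWS-OCT4 line highest and J1 lowest. CYTB had the largest rise and COX1 the largest fall of the mitochondrial genes in EWS-OCT4 versus J1 (1.20 and -0.72). This ratio therefore restates their separate changes and is no further evidence. COX1 made up 13.3% ± 0.257 of all mitochondrial message counts in EWS-OCT4 cells, 20.7% ± 0.97 in OCT4 cells and 26.9% ± 0.604 in J1 (SD, n = 3 each). CYTB made up 16% ± 0.182, 10.3% ± 0.358 and 8.61% ± 0.457 in the same order. ND1 made up 11% ± 0.55 in EWS-OCT4 cells, 5.86% ± 0.0903 in OCT4 cells and 10.2% ± 0.165 in J1, so for ND1 it was the OCT4 line that stood apart. ND5 per CYTB was 0.333 ± 0.00484 in EWS-OCT4 cells, 0.683 ± 0.0502 in OCT4 cells and 0.706 ± 0.079 in J1.

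Per kilobase of gene, ATP6 was the highest mitochondrial gene in EWS-OCT4 cells (37558 ± 2012 CPM per kb) and in OCT4 cells (26103 ± 3624), and ATP8 was the highest in J1 (24978 ± 7419.9, SD, n = 3). ATP8 at 35268 ± 7796 lay within its spread of ATP6 in EWS-OCT4 cells. In OCT4 cells, COX2 (23001 ± 2646) and ATP8 (18324 ± 8234) lay within the spreads of ATP6 or their own. In J1, COX1 (24447 ± 2938), COX2 (22878 ± 2140.0) and ATP6 (22362 ± 2331) were also within their spreads of ATP8. COX1 ranked the 6th in EWS-OCT4 cells (14877 ± 718 CPM per kb), 4th in OCT4 cells (15188 ± 1339.8) and 2nd in J1. CYTB ranked the 4th in EWS-OCT4 cells (24172 ± 847), 6th in OCT4 cells (10256 ± 1488) and 7th in J1 (10518 ± 978 CPM per kb). ND3 and ND6 took the last 2 ranks in each group, with ND6 at 224 ± 35.7, 334 ± 98.9 and 154 ± 78.7 CPM per kb in the EWS-OCT4, OCT4 and J1 libraries. The order of levels across genes also reflects how evenly a library covers each message, which was not tested.

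The nuclear genome holds copies of mitochondrial sequence that can take or give reads. Of all 31-base words in the mitochondrial gene, all of COX2, 99.9% of COX3, 99.5% of ATP6, 98.9% of ND4L and 98.1% of ND3 also occur in annotated nuclear copies, against 63.9% of COX1, 62.8% of ND4, 16.8% of ND5, 13.5% of ND2, 7.47% of ATP8, 7.36% of ND6, 6.55% of CYTB and none of those of ND1. No count stood under the names of these copies in the files, which does not tell a copy without reads from a copy that was not listed. The part of such copies in the values was not tested. The 2 mitochondrial ribosomal RNA symbols together held only 0.443 ± 0.0247, 0.41 ± 0.102 and 0.283 ± 0.0579 percent of counts in the EWS-OCT4, OCT4 and J1 libraries (SD, n = 3 each). Of these, mt-Rnr1 rose in both stable lines against J1, by 0.46 ± 0.11 and 0.64 ± 0.11, and mt-Rnr2 rose in EWS-OCT4 cells, by 0.86 ± 0.25, while the OCT4 line at 0.49 ± 0.25 missed the threshold (edgeR adjusted p = 0.122).

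In both comparisons of EWS-OCT4 cells the nuclear subunits had smaller log2 fold changes than the mitochondrial ones, with a median size of 0.20 against 0.68 in EWS-OCT4 versus OCT4 and of 0.17 against 0.50 in EWS-OCT4 versus J1. In OCT4 versus J1 the median sizes were 0.25 and 0.24. Of 80 nuclear genes tested in EWS-OCT4 versus OCT4, 14 rose and 28 fell (52.5% called, against 66.5% of all genes), where the log2 fold changes had a median of -0.088 and a median size of 0.20, against 0.52 for all genes. Only Cox7a1 changed at least 2-fold (1.25%, against 24.3% of all genes). In EWS-OCT4 versus J1, 14 rose and 24 fell (47.5% called), with a median of -0.036 and a median size of 0.17, against 0.45 for all genes. In OCT4 versus J1, 27 rose and 21 fell (60% called), with a median of 0.031 and a median size of 0.25, against 0.54 for all genes. In each comparison the share called thus lay below that of all genes, and the medians were near that of all genes. Single libraries decided part of these counts. Nuclear genes higher numbered 9 in EWS-OCT4 versus OCT4 without OCT4 replicate 3, between 7 and 8 in EWS-OCT4 versus J1 without J1 replicate 3 (7) or replicate 2 (8) or 3 (8) of EWS-OCT4, and 16 in OCT4 versus J1 without J1 replicate 3. Upper-quartile scaling gave 8 higher and 30 lower in EWS-OCT4 versus J1. Summed CPM of the 17 nuclear complex V genes was 3333 to 3351 in EWS-OCT4 cells, 3702 to 3784 in OCT4 cells and 3586 to 3856 in J1. That of the 4 complex II genes was 398 to 404, 456 to 473 and 439 to 459.9 CPM in the same order. For these complexes the EWS-OCT4 libraries lay below all others. For complexes I and III the ranges of the stable lines overlapped. They were 2072 to 2194 and 2184 to 2260.3 CPM for complex I and 756 to 772 and 750.0 to 773 CPM for complex III. J1 libraries had 2105 to 2323 CPM for complex I, which overlapped both stable lines. For complex III they had 793 to 856 CPM, above every library of both stable lines. Complex IV genes summed to 1785 to 1861, 1996 to 2028 and 1728 to 1964.5 CPM in the EWS-OCT4, OCT4 and J1 libraries. There the EWS-OCT4 libraries lay below all OCT4 libraries and overlapped those of J1.

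**Figure D3:**
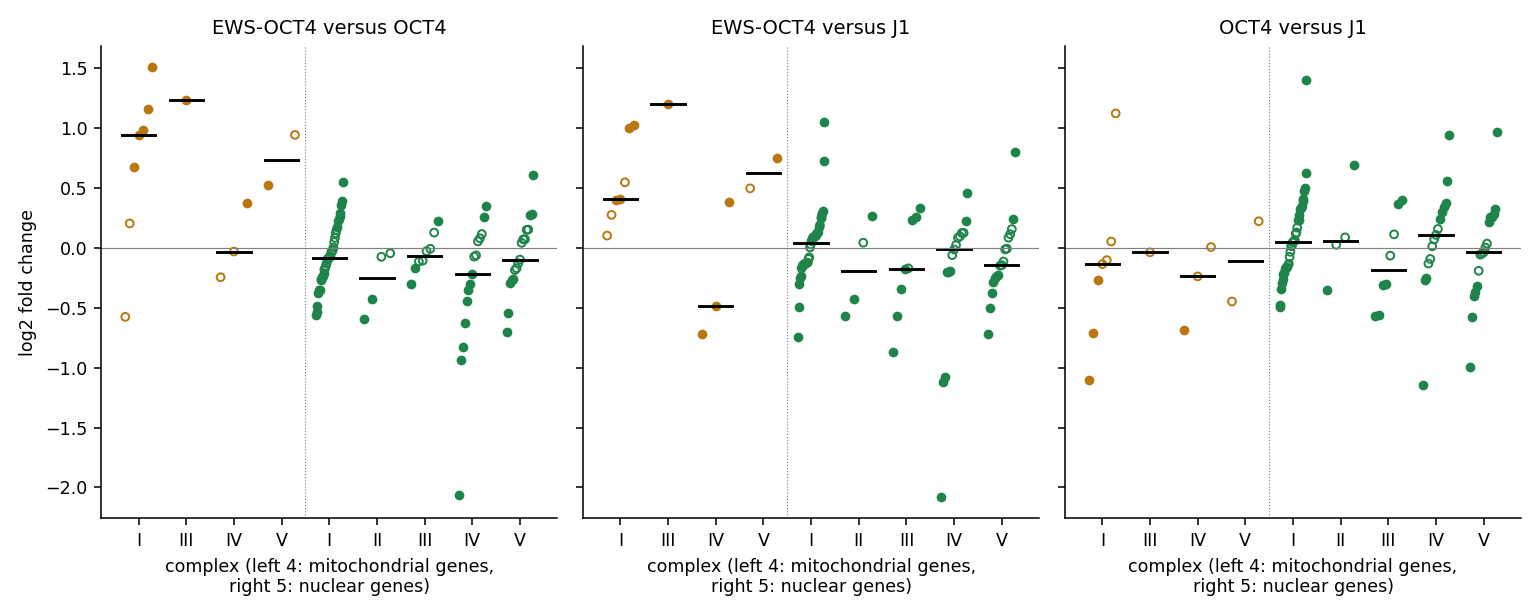
Log2 fold changes of the 93 tested members in the 3 comparisons, by complex, with mitochondrial genes left of the dotted line and nuclear genes right of it. Filled points passed the test, open points did not, and bars are medians; mitochondrial genes lie mostly above 0 in both EWS-OCT4 panels, and nuclear genes scatter around 0 with Cox7a1 or Cox4i2 lowest in each panel.

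In complex I, 8 of 36 nuclear subunits rose and 11 fell in EWS-OCT4 versus OCT4. In EWS-OCT4 versus J1, 6 rose and 6 fell, and in OCT4 versus J1, 12 rose and 8 fell. These calls made up 52.8%, 33.3% and 55.6% of the 36, against 66.5%, 61.9% and 67.0% of all genes. Ndufa5, an accessory subunit of the peripheral arm, was highest in EWS-OCT4 cells, with 56.1, 65 and 64.4 CPM, against 39.8, 44.8 and 42 CPM in OCT4 cells and 30.2, 43.9 and 38.4 CPM in J1. It rose by 0.55 ± 0.11 against OCT4 and by 0.72 ± 0.11 against J1 (edgeR adjusted p = 0.000263 and 2.4e-05). Ndufb1, a small accessory subunit of the membrane arm, had the largest rise of the nuclear members against J1. Its levels were 27.2, 28.3 and 30.7 CPM in EWS-OCT4 cells, 37.4, 36.2 and 36.3 CPM in OCT4 cells and 15.4, 12.2 and 14.1 CPM in J1, with no overlap of any groups. It rose 2.07-fold in EWS-OCT4 cells and 2.64-fold in OCT4 cells against J1 (log2 fold changes 1.05 ± 0.092 and 1.40 ± 0.091), and was lower in EWS-OCT4 cells than in OCT4 cells (-0.35 ± 0.086).

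Other complex I genes separated the lines in different orders. Ndufa7, an accessory subunit of the NADH-oxidising end, fell against J1 in both stable lines, at -0.74 ± 0.076 in EWS-OCT4 cells and -0.47 ± 0.076 in OCT4 cells. Ndufb7 fell, at -0.49 ± 0.10 and -0.34 ± 0.10 in the same comparisons. Ndufb11 and Ndufa6, accessory subunits of the membrane and peripheral arms, fell in EWS-OCT4 cells against OCT4 at -0.56 ± 0.090 and -0.53 ± 0.073, and rose in OCT4 cells against J1 by 0.63 ± 0.090 and 0.39 ± 0.073. Ndufs1, the largest iron-sulphur subunit, rose by 0.36 ± 0.063 in EWS-OCT4 versus OCT4 and fell at -0.49 ± 0.063 in OCT4 versus J1. Its difference between EWS-OCT4 and J1, -0.13 ± 0.062, did not pass, except without J1 replicate 2 (edgeR adjusted p = 0.0377). Ndufv1, which binds NADH, rose by 0.22 ± 0.073 in EWS-OCT4 versus OCT4 (edgeR adjusted p = 0.0127), but not without OCT4 replicate 3 (0.0551). Ndufa9, at the junction of the arms, rose by 0.39 ± 0.071 in EWS-OCT4 versus OCT4. Ndufa9 and the other 3 members with the YY1 letters in their promoter windows had log2 fold changes of 0.39, 0.26, -0.18 and 0.15 (Ndufa9, Ndufs4, Ndufs6 and Ndufs7) in that comparison, of which the positive values of Ndufa9 and Ndufs4 passed.

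In complex II, the membrane anchors Sdhc and Sdhd differed between the stable lines, and Sdha, the flavoprotein that oxidises succinate, did not pass in any comparison (-0.044 ± 0.069, 0.044 ± 0.069 and 0.088 ± 0.069 for EWS-OCT4 against OCT4, EWS-OCT4 against J1, and OCT4 against J1). Sdhc had 82.7, 84.5 and 85 CPM in the EWS-OCT4 libraries, 131, 119.9 and 130.0 CPM in the OCT4 libraries and 119.7, 131 and 123 CPM in the J1 libraries. The EWS-OCT4 line lay below all other libraries, and the OCT4 and J1 libraries overlapped. Sdhc fell in EWS-OCT4 cells to 66.2% of OCT4 (log2 fold change -0.59 ± 0.065; edgeR adjusted p = 3.57e-07) and to 67.5% of J1 (-0.57 ± 0.065; edgeR adjusted p = 8.16e-07). Sdhd, its partner in the membrane, was highest in OCT4 cells, 0.69 ± 0.094 above J1, and fell in EWS-OCT4 cells against OCT4 at -0.43 ± 0.094. Sdhd also rose in EWS-OCT4 cells against J1 (0.27 ± 0.10; edgeR adjusted p = 0.0224), a call lost without EWS-OCT4 replicate 1 or 2 or J1 replicate 2 or 3 (0.0764, 0.0631, 0.0831 and 0.0983). Sdhb, the iron-sulphur subunit, fell in both stable lines against J1, at -0.43 ± 0.078 in EWS-OCT4 cells and -0.35 ± 0.078 in OCT4 cells. In all, 0 of 4 rose and 2 fell in EWS-OCT4 versus OCT4. In EWS-OCT4 versus J1, 1 rose and 2 fell, and in OCT4 versus J1, 1 rose and 1 fell. These calls made up 50%, 75% and 50% of the 4, against 66.5%, 61.9% and 67.0% of all genes.

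In complex III, 1 of 8 nuclear subunits rose and 2 fell in EWS-OCT4 versus OCT4, while 3 rose and 4 fell in EWS-OCT4 versus J1 and 2 rose and 4 fell in OCT4 versus J1. This stood beside a CYTB level more than 2-fold higher in EWS-OCT4 cells than in both others. The nuclear calls made up 37.5%, 87.5% and 75% of the 8 in these comparisons, against 66.5%, 61.9% and 67.0% of all genes. Uqcr10, a small membrane subunit, had 49.6, 50.6 and 50.7 CPM in EWS-OCT4 cells, 57.4, 69.9 and 58.3 CPM in OCT4 cells and 99.3, 93.7 and 82.3 CPM in J1, so that both stable lines lay below J1. It fell, at -0.87 ± 0.085 in EWS-OCT4 cells and -0.57 ± 0.084 in OCT4 cells against J1. It was also lower in EWS-OCT4 cells than in OCT4 cells (-0.30 ± 0.085; edgeR adjusted p = 0.00527), but not without OCT4 replicate 2 (0.0508). Uqcrq, another small subunit, fell, at -0.57 ± 0.075 and -0.56 ± 0.075 against J1 and differed at -0.0069 ± 0.076 between the stable lines, which did not pass. Uqcrfs1, the Rieske iron-sulphur protein, fell against J1 in both lines (-0.34 ± 0.084 and -0.31 ± 0.084). Uqcrb rose against J1 in OCT4 cells (0.40 ± 0.068) and in EWS-OCT4 cells (0.23 ± 0.068), where the call was lost without EWS-OCT4 replicate 3 (edgeR adjusted p = 0.0535). Uqcrh, the hinge subunit that helps bind cytochrome c1, rose in EWS-OCT4 cells against J1 (0.34 ± 0.091). Its rise against OCT4 (0.22 ± 0.091; edgeR adjusted p = 0.0409) was lost without EWS-OCT4 replicate 2 or 3 or OCT4 replicate 2 or 3 (0.113, 0.0794, 0.114 and 0.108). Uqcrc1, a core subunit, fell at -0.30 ± 0.066 in OCT4 versus J1, and Uqcrc2, the other core subunit, did not pass there (-0.064 ± 0.083).

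Complex IV has several subunits with tissue-specific paralogs, and these held the largest nuclear falls in each comparison. In all, 2 of 15 tested nuclear subunits rose and 8 fell in EWS-OCT4 versus OCT4. In EWS-OCT4 versus J1, 2 rose and 6 fell, and in OCT4 versus J1, 6 rose and 3 fell. These calls made up 66.7%, 53.3% and 60% of the 15, against 66.5%, 61.9% and 67.0% of all genes. Cox7a1, the heart and muscle form of subunit VIIa, had 3.17, 2.94 and 2.53 CPM in the EWS-OCT4 libraries, 11.6, 11.7 and 12.9 CPM in the OCT4 libraries and 6.23, 7.22 and 5.27 CPM in the J1 libraries, with no overlap. It fell in EWS-OCT4 cells to 23.9% of OCT4 (log2 fold change -2.07 ± 0.15; edgeR adjusted p = 1.14e-09) and to 46.2% of J1 (-1.12 ± 0.15; edgeR adjusted p = 5.53e-06), and rose 1.93-fold in OCT4 versus J1 (0.95 ± 0.13). Of the counts of Cox7a1 and its ubiquitous partner Cox7a2 together, not corrected for length, Cox7a1 held 2.89% ± 0.321 in EWS-OCT4 cells, 13.7% ± 1.28 in OCT4 cells and 6.45% ± 1.16 in J1 (SD, n = 3 each). Cox7a2 itself rose by 0.35 ± 0.088 in EWS-OCT4 versus OCT4.

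Cox7a2l, which joins complexes III and IV into supercomplexes, had 35.9, 36.1 and 37.2 CPM in the EWS-OCT4 libraries, 63.1, 65 and 65.5 CPM in the OCT4 libraries and 74.7, 87.3 and 68.2 CPM in the J1 libraries. The EWS-OCT4 line was lowest with no overlap. It fell to 56.4% of OCT4 (log2 fold change -0.83 ± 0.082; edgeR adjusted p = 9.89e-08) and to 47.5% of J1 (-1.08 ± 0.082; edgeR adjusted p = 4.91e-09), and was slightly lower in OCT4 cells than in J1 (-0.25 ± 0.079). Cox4i2, the lung form of subunit IV, was scarce, with 1.01, 0.909 and 1.43 CPM in EWS-OCT4 cells, 2.45, 1.9 and 2.1 CPM in OCT4 cells and 4.26, 5.39 and 4.61 CPM in J1. It fell against J1 at -2.08 ± 0.21 in EWS-OCT4 cells and -1.14 ± 0.19 in OCT4 cells. Its ubiquitous partner Cox4i1 averaged 337 ± 9.29 CPM in EWS-OCT4 cells, 391 ± 8.58 CPM in OCT4 cells and 387 ± 41.2 CPM in J1 (SD, n = 3 each). Cox4i1 was lower in EWS-OCT4 versus OCT4 at -0.22 ± 0.074 (edgeR adjusted p = 0.0167), a call lost without any of EWS-OCT4 replicates 1, 2 and 3 or OCT4 replicate 2 (0.107, 0.0535, 0.0554 and 0.0534).

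Cox6b2, the testis form of subunit VIb, had 23.5, 25.2 and 23.2 CPM in EWS-OCT4 cells, 37.7, 37.5 and 35.6 CPM in OCT4 cells and 25.1, 25.3 and 24.4 CPM in J1. The OCT4 line stood above both others. It was lower in EWS-OCT4 versus OCT4 at -0.62 ± 0.074, higher in OCT4 versus J1 by 0.56 ± 0.074, and differed at -0.060 ± 0.075 in EWS-OCT4 versus J1, which did not pass. Its ubiquitous partner Cox6b1 rose against J1 in EWS-OCT4 cells by 0.46 ± 0.076 and in OCT4 cells by 0.38 ± 0.076. Cox6a1 rose by 0.30 ± 0.072 in OCT4 versus J1. In EWS-OCT4 versus J1 it rose by 0.22 ± 0.072 (edgeR adjusted p = 0.0123), a call lost without EWS-OCT4 replicate 3 (0.0557) or J1 replicate 3 (0.07). Cox5a fell at -0.35 ± 0.10 in EWS-OCT4 versus OCT4 and rose by 0.34 ± 0.10 in OCT4 versus J1. Cox5b did not pass in EWS-OCT4 versus OCT4 (-0.062 ± 0.13). Against J1 it passed only without J1 replicate 2, as higher in EWS-OCT4 cells (edgeR adjusted p = 0.0111) and in OCT4 cells (0.00271). Cox7c rose in EWS-OCT4 versus OCT4 by 0.26 ± 0.089 (edgeR adjusted p = 0.0173), but not without EWS-OCT4 replicate 3 (0.0722) or OCT4 replicate 3 (0.0562). The remaining paralogs were below the filter. Cox6a2 (heart and muscle) stayed at or below 0.0903 CPM, Cox7b2 (testis) at or below 0.433 CPM and Cox8c (testis) at or below 0.361 CPM in every library. Cox8b (heart and muscle) had no count, and a count of 0 allows up to 3 counts in a library, or 0.142 CPM in the smallest, which covers counting error only.

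**Figure D4:**
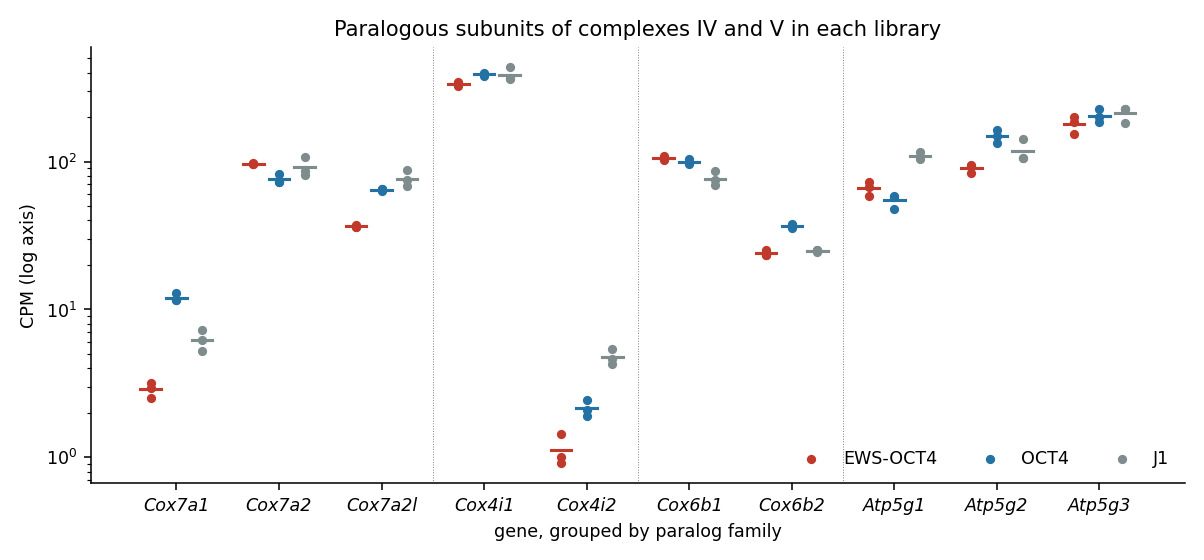
Levels of paralogous subunits of complexes IV and V in each library, in CPM on a log axis, with dotted lines between paralog families. Points are libraries and bars are means of 3; Cox7a1, Cox7a2l and Cox4i2 are lowest in EWS-OCT4 cells, and Atp5g1 is highest in J1.

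In complex V, 3 of 17 nuclear subunits rose and 5 fell in EWS-OCT4 versus OCT4. In EWS-OCT4 versus J1, 2 rose and 6 fell, and in OCT4 versus J1, 6 rose and 5 fell. These calls made up 47.1%, 47.1% and 64.7% of the 17, against 66.5%, 61.9% and 67.0% of all genes. The c subunit genes whose promoters are printed above followed separate courses. Atp5g1 had 72.2, 58.4 and 67.7 CPM in the EWS-OCT4 libraries, 58.7, 57.3 and 47.8 CPM in the OCT4 libraries and 115, 104 and 108 CPM in the J1 libraries, so that J1 stood above both stable lines. It fell against J1 at -0.72 ± 0.088 in EWS-OCT4 cells (edgeR adjusted p = 1.68e-06) and at -0.996 ± 0.089 in OCT4 cells (edgeR adjusted p = 2.05e-08). Atp5g2, with the NRF1 letters, had 83.1, 95.2 and 94 CPM in EWS-OCT4 cells, 133, 149 and 162 CPM in OCT4 cells and 106, 141 and 106 CPM in J1, and here the EWS-OCT4 line stood below all others. It fell in EWS-OCT4 cells at -0.70 ± 0.11 against OCT4 and at -0.38 ± 0.11 against J1 (edgeR adjusted p = 3.31e-05 and 0.00661). Atp5g2 was higher in OCT4 cells than in J1 (0.33 ± 0.11; edgeR adjusted p = 0.0133), a call lost without OCT4 replicate 3 or J1 replicate 1 or 3 (0.0664, 0.0887 and 0.0858). Atp5g3 did not pass in any comparison (-0.18 ± 0.11, -0.24 ± 0.11 and -0.056 ± 0.11 for EWS-OCT4 against OCT4, EWS-OCT4 against J1, and OCT4 against J1), although it passed as lower in EWS-OCT4 versus J1 without EWS-OCT4 replicate 2 (edgeR adjusted p = 0.0359) or J1 replicate 3 (0.0131). Of the 3 genes' counts together, Atp5g1 held 19.8% ± 3.4 in EWS-OCT4 cells, 13.5% ± 2.4 in OCT4 cells and 24.9% ± 2.7 in J1, Atp5g2 held 26.9% ± 0.0992, 36.3% ± 0.948 and 26.8% ± 3.12, and Atp5g3 held 53.3% ± 3.32, 50.2% ± 1.65 and 48.3% ± 2.31 in the same order (SD, n = 3 each, not corrected for length). Atp5g1 also passed as higher in EWS-OCT4 versus OCT4 (0.28 ± 0.089; edgeR adjusted p = 0.0118), but not without EWS-OCT4 replicate 1 (0.0547) or OCT4 replicate 3 (0.0872), and the groups overlapped.

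In the catalytic head and central stalk of ATP synthase, the alpha, beta and delta subunit genes Atp5a1, Atp5b and Atp5d fell in EWS-OCT4 versus OCT4, at -0.26 ± 0.064, -0.26 ± 0.069 and -0.54 ± 0.080. In OCT4 versus J1, Atp5a1 rose by 0.26 ± 0.064 and Atp5b differed by 0.036 ± 0.068, which did not pass. Atp5d rose by 0.26 ± 0.080 there, but not without J1 replicate 3 (edgeR adjusted p = 0.0753). Among stalk and membrane subunits, Atp5l (subunit g) rose in EWS-OCT4 versus OCT4 by 0.61 ± 0.084 and fell in OCT4 versus J1 at -0.37 ± 0.084. Its rise in EWS-OCT4 versus J1, 0.24 ± 0.083, was lost without EWS-OCT4 replicate 2 or J1 replicate 3 (edgeR adjusted p = 0.0709 and 0.105). Atp5mpl, a small subunit of the membrane part, rose against J1 by 0.80 ± 0.10 in EWS-OCT4 cells and 0.97 ± 0.10 in OCT4 cells. Atp5o, which links the head to the peripheral stalk, fell against J1 at -0.50 ± 0.079 and -0.57 ± 0.079 in the same order. Atp5md, needed for ATP synthase dimers to hold together, rose in EWS-OCT4 versus OCT4 by 0.28 ± 0.090 (edgeR adjusted p = 0.0102), but not without OCT4 replicate 2 (0.0691). Of the 80 tested nuclear members, 15 share at least 20% of their 31-base words with other annotated genes or pseudogenes, Atp5l (69.6%), Uqcrb (54.3%) and Cox7a2l (21.1%) among them, and their counts are uncertain to that extent.

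Several of the changes against J1 lay on chromosomes whose median log2 fold change was itself away from 0. The 4 members on chromosome 11 (Atp5g1, Atp5h, Uqcr10 and Uqcrq) all fell against J1, with log2 fold changes of -0.87 to -0.25 in EWS-OCT4 cells and -0.996 to -0.32 in OCT4 cells. The median log2 fold change of all 1327 tested genes of chromosome 11 was -0.51 and -0.46 in these comparisons, against -0.0055 and -0.017 for all 15467 autosomal genes. The 3 members on chromosome 8 (Cox4i1, Ndufa13 and Ndufb7) had values of -0.49 to -0.20 in EWS-OCT4 versus J1, all 3 called lower, beside a chromosome 8 median of -0.44. The call of Cox4i1 there was lost without EWS-OCT4 replicate 1, 2 or 3 or J1 replicate 2 (edgeR adjusted p = 0.12, 0.0621, 0.0671 and 0.139). In OCT4 versus J1 they had values of -0.34 to 0.24, 1 called higher and 1 lower, beside a median of -0.47. The 3 X-linked members (Cox7b, Ndufa1 and Ndufb11) had values of -0.56 to -0.13 in EWS-OCT4 versus OCT4, 2 of them called lower, and of 0.24 to 0.63 in OCT4 versus J1, all 3 called higher. Medians over all 605 tested X-linked genes were -0.52 and 0.63. Of the X-linked calls in OCT4 versus J1, that of Ndufa1 was lost without OCT4 replicate 3 (edgeR adjusted p = 0.0672) or J1 replicate 3 (0.0603), and that of Cox7b without OCT4 replicate 1 (0.127), J1 replicate 2 (0.0503) or J1 replicate 3 (0.164). Ndufb1 and Atp5mpl, both on chromosome 12, instead rose against J1 while the chromosome 12 medians were -0.29 in EWS-OCT4 cells and -0.15 in OCT4 cells. The part of these shifts in the members' values was not tested.

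Genes that maintain, transcribe and process mitochondrial DNA and RNA mostly rose in EWS-OCT4 cells against OCT4 cells. Any link to the levels of mitochondrial messages was not tested. Of 30 in the list, 22 rose and 2 fell (Hsd17b10 and Fastk) in EWS-OCT4 versus OCT4, where 31.9% of all genes rose. Their median log2 fold change was 0.49, against -0.035 for all genes. Elac2, which trims the 3′ ends of mitochondrial tRNAs, rose by 1.21 ± 0.065, and Fastkd2, an RNA-binding protein of the mitochondrial matrix, by 1.14 ± 0.11. Hsd17b10, an X-linked subunit of mitochondrial RNase P, fell, at -0.58 ± 0.085, beside a median of -0.52 over all X-linked genes. In OCT4 versus J1, 4 rose and 20 fell, with a median of -0.44, where 32.7% of all genes fell. Lrpprc, which stabilises mitochondrial messages together with Slirp, averaged 84.8 ± 5.58 CPM in EWS-OCT4 cells, 65.6 ± 5.47 CPM in OCT4 cells and 232 ± 11.4 CPM in J1 (SD, n = 3 each). It fell, at -1.82 ± 0.077 in OCT4 versus J1 and at -1.45 ± 0.076 in EWS-OCT4 versus J1. Tefm, an elongation factor of mitochondrial transcription, fell, at -1.62 ± 0.13 in OCT4 versus J1, and lies on chromosome 11 (median -0.46). In EWS-OCT4 versus J1 the list was split, with 10 higher and 9 lower (5 lower without EWS-OCT4 replicate 1) and a median of -0.074. Calls made up 63.3% of the list in that comparison, against 61.9% of all genes. Grsf1, of the mitochondrial RNA granules, rose in EWS-OCT4 versus J1 by 0.80 ± 0.062. Polg2, the accessory subunit of the mitochondrial DNA polymerase, fell there, at -0.88 ± 0.16, and lies on chromosome 11 (median -0.51).

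The mitochondrial ribosome, which translates the 13 messages, gave counts in the same directions. Of 78 subunit genes, 45 rose and 7 fell in EWS-OCT4 versus OCT4 (3 lower without EWS-OCT4 replicate 1; median 0.23), 27 rose and 19 fell in EWS-OCT4 versus J1 (median 0.078), and 15 rose and 42 fell in OCT4 versus J1 (median -0.23). The share called was 66.7%, 59.0% and 73.1% in these comparisons, against 66.5%, 61.9% and 67.0% of all genes. Mrps18b and Mrps34 rose most in EWS-OCT4 versus OCT4, by 1.15 ± 0.081 and 1.04 ± 0.11. Mrps34 and Mrpl17 rose by 1.31 ± 0.11 and 1.15 ± 0.066 in EWS-OCT4 versus J1. Mrps24 fell, at -1.13 ± 0.081 in EWS-OCT4 versus J1, and Mrpl45 and Mrpl22 at -0.997 ± 0.064 and -0.87 ± 0.070 in OCT4 versus J1. These 3 genes also lie on chromosome 11.

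Assembly factors differed by complex. For complex IV, 12 of 25 rose and 4 fell in EWS-OCT4 versus OCT4 (median 0.21), with Surf1, a heme insertion factor, and Pet100 higher by 0.79 ± 0.11 and 0.71 ± 0.10 and Cox18, which inserts the tail of COX2 into the membrane, lower at -1.09 ± 0.10. In EWS-OCT4 versus J1, 8 rose and 10 fell (6 without EWS-OCT4 replicate 1), and in OCT4 versus J1, 7 rose and 12 fell. The share called, 64%, 72% and 76% in these comparisons, stood beside 66.5%, 61.9% and 67.0% of all genes. Coa8 rose in both stable lines against J1 (1.66 ± 0.10 and 1.56 ± 0.10). Cox11, a copper factor of COX1, fell in both (-0.81 ± 0.11 and -1.32 ± 0.11), and lies on chromosome 11 (medians -0.51 and -0.46). For complex I, 6 of 16 rose and 1 fell in EWS-OCT4 versus OCT4, led by Ndufaf4 (0.96 ± 0.080) and Ecsit (0.86 ± 0.082), and Aifm1, an X-linked factor, was lower (-0.68 ± 0.079). For complex III, 5 of 9 rose and 3 fell, Uqcc5 (0.96 ± 0.22) and Uqcc3 (0.86 ± 0.11) among those that rose. For complex V, 2 of 5 rose and 1 fell, Atpaf2 (0.78 ± 0.095), which helps assemble the head, and Tmem70 (-1.14 ± 0.10), which helps build the c ring, standing at the ends. For complex II, 1 of 4 rose (Sdhaf2, 0.39 ± 0.093) and 1 fell (Sdhaf3, -0.36 ± 0.15), the call of Sdhaf3 being lost under 8 of 18 alternatives. In EWS-OCT4 versus OCT4 the share called was 43.8% for complex I, 50% for II, 88.9% for III and 60% for V, against 66.5% of all genes.

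**Figure D5:**
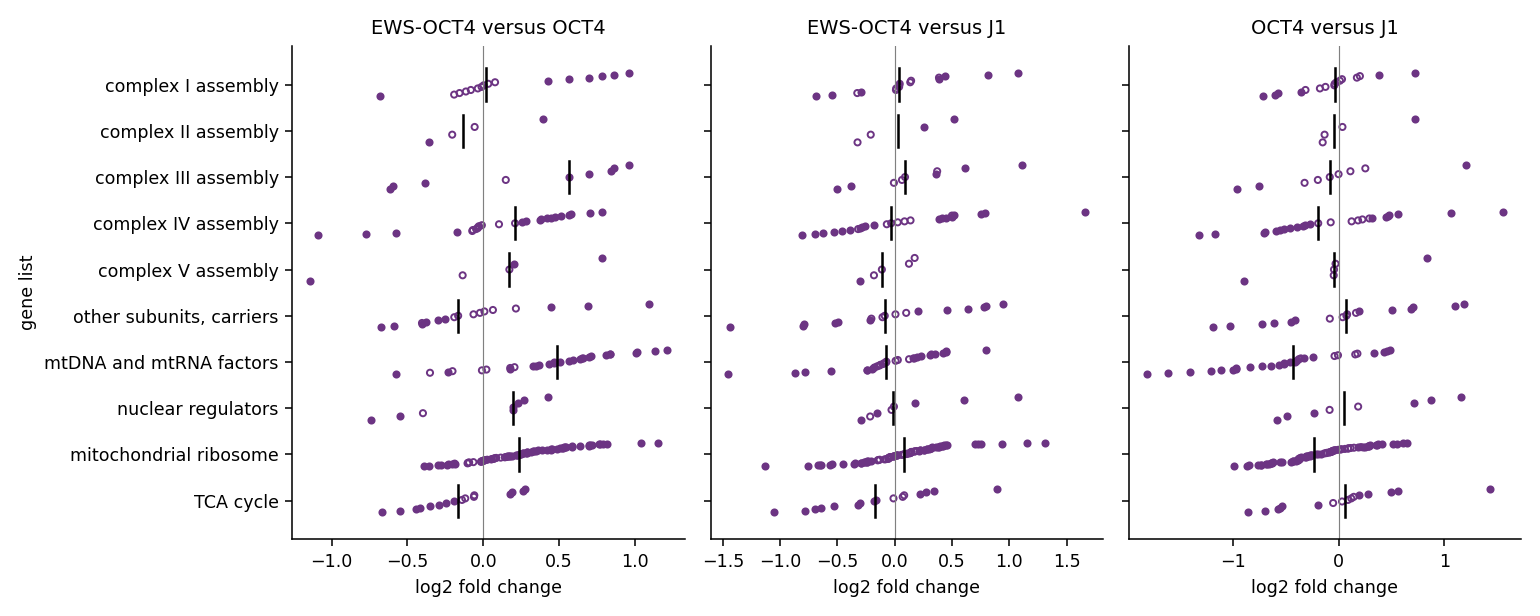
Log2 fold changes of genes in 10 related lists, in the 3 comparisons. Filled points passed the test, open points did not, and bars are medians; the mitochondrial DNA and RNA factors have a median of 0.49 in EWS-OCT4 versus OCT4, -0.074 in EWS-OCT4 versus J1 and -0.44 in OCT4 versus J1.

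Among nuclear regulators of the chain, 5 of 8 tested rose and 2 fell in EWS-OCT4 versus OCT4, where 31.9% of all genes rose and 34.6% fell. With a filter of at least 5 CPM in 3 libraries, 3 rose. Pprc1, a coactivator of NRF1 targets, rose by 0.43 ± 0.065, Nrf1 itself by 0.27 ± 0.075, and Ppargc1b, a coactivator of mitochondrial biogenesis, fell, at -0.74 ± 0.12. Yy1 rose against J1 in both stable lines, by 1.07 ± 0.070 in EWS-OCT4 cells and 0.88 ± 0.070 in OCT4 cells. Nfe2l2, a regulator of the antioxidant response, rose in both lines against J1 (0.61 ± 0.073 and 1.15 ± 0.073) and was lower in EWS-OCT4 cells than in OCT4 cells (-0.55 ± 0.072). Of 17 further chain subunits and electron carriers outside the naming rule, 3 rose and 6 fell in EWS-OCT4 versus OCT4 (52.9% called, against 66.5% of all genes). Pdss1 of ubiquinone synthesis was higher (1.09 ± 0.12) and Coq2 of the same pathway lower (-0.67 ± 0.073). Cyc1, the cytochrome c1 of complex III, did not pass in any comparison, at -0.022 ± 0.079, -0.11 ± 0.079 and -0.085 ± 0.079 for EWS-OCT4 against OCT4, EWS-OCT4 against J1, and OCT4 against J1. Of 16 genes of the TCA cycle and pyruvate dehydrogenase, which supply the chain with electrons, 4 rose and 8 fell in EWS-OCT4 versus OCT4 (median -0.17), 4 rose and 9 fell in EWS-OCT4 versus J1 (median -0.17), and 5 rose and 6 fell in OCT4 versus J1 (median 0.059). The share called was 75%, 81.2% and 68.8% in these comparisons, against 66.5%, 61.9% and 67.0% of all genes. The X-linked Pdha1, the catalytic subunit of pyruvate dehydrogenase, rose against J1 in both stable lines (0.89 ± 0.064 and 1.44 ± 0.065), and Sucla2, of succinyl-CoA synthetase, fell in both (-1.05 ± 0.079 and -0.86 ± 0.078).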

How the data were processed

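Total RNA was extracted with RNAiso Plus and sequenced as CORALL V2 libraries, per the labels' protocols. Each of 9 libraries has raw counts of reads by gene symbol, as the authors deposited them. GATK, fastp, STAR and Salmon and the build GRCm39 appear in the submitters' processing notes. Versions, molecular identifier collapsing, annotation and strand use were not given in the sources used here. Genes passing edgeR's filterByExpr (minimum count 10, minimum total 15; 16562 genes) were scaled by TMM and fitted in 3 groups over all 9 libraries with robust glmQLFit and glmQLFTest (edgeR 4.0.16, R 4.3.3), with Benjamini-Hochberg adjustment over all genes at 0.05. CPM used TMM-scaled totals; ± beside a log2 fold change is a standard error, its absolute value over the root of the F statistic. The 4 members Cox6a2, Cox7b2, Cox8b and Cox8c failed the filter. Replicates of a group differed beyond sampling noise (chi-square per degree of freedom 3.36 to 32.0).

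The members and gene lists were chosen with earlier results of these data known. Named were all mitochondrial genes, the catalytic cores, paralog families and X-linked members, and in each complex and comparison the 2 largest non-overlapping calls per direction with at least 5 CPM in the higher group; pathway lists named at most the 2 largest calls per direction. Members named for a motif or a chromosome, Cyc1, Gm26917, mt-Rnr1 and mt-Rnr2 were chosen after their values were seen. A gene that this rule covers is not reported here. Shared 31-base words came from GENCODE M21 transcripts (GRCm38), promoters from RefSeq (GRCm38.p6). The fit was tested on simulated data. The alternatives were other scalings and filters, DESeq2 1.42.0, limma-voom (limma 3.58.1), 6 libraries only, a replicate block, omission of mitochondrial genes, of members on chromosomes 8, 11, 12, X and Y, and of each library; those for the pathway lists were added after seeing the data.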

Additional observations from a re-analysis of the deposited data

How the results depend on the processing

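Calls of the 58 tested named genes kept their side of the threshold and their direction in 2935 of 3090 alternatives; 87 lost the call, 68 gained it and 0 reversed. Of 747 alternatives for counts, medians and sums, 50 moved, and the cause was not tested. A median moved when its shift reached its SD among replicate libraries, so noisier medians moved less readily. A count of genes moved when its ratio to the main value passed a set limit, or when it went to or from 0. Smaller shifts are therefore not among the 50. In EWS-OCT4 versus OCT4, 1 mitochondrial gene (COX3) was lower with upper-quartile scaling, no low-count filter, at least 5 CPM in 3 libraries, the 6 libraries alone or the replicate block. The nuclear median was -0.13 with upper-quartile scaling, -0.061 with no filter and -0.13 at 5 CPM. The complex IV median was -0.25 with upper-quartile scaling and -0.072 with members on chromosomes 8, 11, 12, X and Y left out, and the complex V median was -0.14 at 5 CPM. In EWS-OCT4 versus J1, nuclear genes higher numbered 8 with upper-quartile scaling and at 5 CPM. The complex III median there was -0.22 with either of these and 0.031 with those chromosomes left out, against 0.025 in OCT4 versus J1. Mitochondrial genes higher in OCT4 versus J1 numbered 1 with no filter and by DESeq2.

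Without COX1 the mitochondrial share was 14.5, 9.15 and 10.4 percent in the EWS-OCT4, OCT4 and J1 lines, and it was 17.3 percent in the EWS-OCT4 line with TMM-scaled totals. Nuclear summed CPM was 8178 (EWS-OCT4) and 9318 (OCT4) with unscaled totals, and 7425, 7929 and 7786 without Atp5b in the 3 lines. Without mitochondrial genes and rRNA in the fit, 14 nuclear genes were higher and 28 lower in EWS-OCT4 versus OCT4.

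With 1 library left out, values in EWS-OCT4 versus OCT4 ran from 0 to 1 mitochondrial genes lower, 9 to 16 nuclear genes higher, a nuclear median of -0.10 to -0.050, and medians of -0.12 to -0.017 (complex I), -0.23 to -0.17 (IV) and -0.095 to -0.056 (V). In EWS-OCT4 versus J1 they ran from 7 to 17 nuclear genes higher, with a nuclear median of -0.090 to -0.013 and a complex IV median of -0.072 to 0.029. In OCT4 versus J1 they ran from 0 to 2 mitochondrial genes higher, 2 to 7 lower and 16 to 28 nuclear genes higher, with medians of -0.22 to -0.11 (complex III) and 0.050 to 0.14 (IV).

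Same-numbered libraries of different groups had correlations of -3.2e-05 to 0.0737, so the numbers were not taken to pair the samples. With the replicate block, 1 mitochondrial gene was lower in EWS-OCT4 versus OCT4 and 2 were higher in OCT4 versus J1, and ATP8 passed as higher in EWS-OCT4 versus OCT4 (edgeR adjusted p = 0.0165). Members with few counts (Cox6a2, Cox7b2, Cox8b and Cox8c) could not be compared at this depth. Of the pathway lists in EWS-OCT4 versus OCT4, genes higher numbered 3 regulators and 3 complex III assembly factors at 5 CPM, and 1 complex V assembly factor and 2 TCA cycle genes with upper-quartile scaling.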
